A study of Mus musculus with 5 samples.

Results

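The gene segments of the T cell receptor (TCR) alpha and beta chains were examined in naïve CD8+ T cells, with the DNase-seq peaks that lie around them. Members were all genes of the mm9 annotation with a symbol that begins with Trav, Traj, Trac, Trbv, Trbd, Trbj or Trbc, and all peaks with a summit between the first and the last such segment of each locus, extended by 20 kb on both sides. The rule gave 90 of 37310 annotated genes, 38 of 31116 peaks deposited for WT cells and 46 of 25525 peaks deposited for dKO cells. The Tra locus spanned 1835.2 kb of chromosome 14 and the Trb locus 707.1 kb of chromosome 6.

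DNase I cuts DNA where chromatin is accessible, and DNase-seq reads the pieces it frees. The study used it to ask how the transcription factors Tcf1 and Lef1 shape accessibility in mature CD8+ T cells, with 3 replicates of WT mice and 2 of mice that lack both factors (dKO). All mice carried hCD2-Cre, which the study describes as most active in mature peripheral T cells, and a Rosa26-lsl-GFP reporter, so Cre and GFP were present in both groups, and the Tcf1 and Lef1 genes were wild-type in WT mice and floxed on both alleles in dKO mice. GFP+ TCRbeta+ CD62Lhi CD44lo-med CD8+ cells were sorted from splenocytes. Replicates were pooled by genotype before peaks were called, with 83923734 fragments kept for WT and 62242963 for dKO, so each genotype has 1 list. Replicate values do not exist in the lists, and genotypes were compared without a test. The study's criteria for a ChrAcc site were a fold enrichment (pileup over local background) of 4 or more, with p under 1e-05 and a q value under 0.05. Peaks that met them are called sites here, of which there were 28472 in WT and 24363 in dKO cells. At the Tra and Trb loci these were 33 WT and 45 dKO sites, and 5 WT peaks and 1 dKO peak failed the criteria.

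As background, a TCR gene is assembled in the thymus by V(D)J recombination, in which the RAG recombinase joins a V segment to a J segment, with a D segment between them in the beta chain, at recombination signals that flank each segment. Joining usually deletes the DNA between the chosen segments, and because the delta locus lies inside the alpha locus, joining of Trav to Traj removes the Trd segments from that chromosome. Naïve CD8+ T cells have finished this process and differ from each other in the segments they kept, so a pool of cells holds unequal numbers of copies along both loci. Each V segment has its own promoter, and transcription of the assembled genes depends on enhancers that lie downstream of Trac and between Trbc2 and Trbv31.

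The identity of the cells was checked with ChrAcc sites within 1 kb of a transcription start site (TSS). The percentile is the rank of a site's fold enrichment within its own list, from 0 for the lowest to 100 for the highest, and is used here because the pools differ in depth. Of 8 T and CD8 T cell genes, 7 had a site in WT and 6 in dKO cells, with Cd8a and Cd8b1 among them in both lists and Thy1 in neither. No site was found at the 2 CD4 T cell genes, the 5 B cell genes or the 2 NK cell genes in either list. Of 3 myeloid genes, Itgam had a site in WT cells at percentile 34.8 and none in dKO cells. Of 5 gamma delta T cell genes, only Sox13 was named in the annotation, and it had a site in both lists, at percentile 8.02 in WT and 45.9 in dKO cells. With Trdc and the Trgc genes unmatched, the check for gamma delta T cells is void, and the part of other cells in the results was not tested. For comparison, 45.3% of 22238 protein-coding genes had a site in WT and 42.1% in dKO cells.

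Some dKO sites at the loci had the extent of an exon. Of 3519 ChrAcc sites found in the dKO list alone, 25 (0.71%) matched a single annotated exon by at least 80% in both directions, and 4 of the 25 were TCR exons. With a percentile of at least 50, they were 4 of 7. The match rule and the percentile limit were chosen after the values were seen, and the lowest of the 4 lies just above that limit, at 50.1. They were exons 1 and 3 of Trac, exon 2 of Trbv13-3 and exon 2 of Trav14-1, which is named Gm5770 in the annotation. Over all sites such a match was rare, with 0.776% of WT sites (95% Wilson interval 0.681 to 0.885) and 0.673% of dKO sites (0.578 to 0.784), and it was found at 0 of 33 WT sites of the loci. As background, the receptor of P14 TCR-transgenic mice is built from a Trav14 family segment and Trbv13-3. The study crossed the P14 transgene onto the dKO background for other experiments, in which both WT and dKO P14 mice were used. The labels of the samples used here name no TCR transgene, and the part of such a transgene in these sites was not tested. The main counts and medians over the sites of the loci are given with and without these 4 sites, an alternative chosen after the data were seen. Values under the other alternatives include these sites.

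Sequences of 2 such sites, and of the shared site upstream of Trav14-1 that runs into exon 1 without matching it, are shown for their extent relative to exons. They are the plus strand of mm9 in 5′ to 3′ direction, with exon bases in capitals, at chr14:54840177-54840475, chr6:41080288-41080587 and chr14:54173595-54173775. The dKO peak at exon 1 of Trac spanned 54840207 to 54840453 within an exon that spans 54840196 to 54840456, and the peak at exon 2 of Trbv13-3 spanned 41080295 to 41080560 within an exon that spans 41080291 to 41080584.
Trac exon 1: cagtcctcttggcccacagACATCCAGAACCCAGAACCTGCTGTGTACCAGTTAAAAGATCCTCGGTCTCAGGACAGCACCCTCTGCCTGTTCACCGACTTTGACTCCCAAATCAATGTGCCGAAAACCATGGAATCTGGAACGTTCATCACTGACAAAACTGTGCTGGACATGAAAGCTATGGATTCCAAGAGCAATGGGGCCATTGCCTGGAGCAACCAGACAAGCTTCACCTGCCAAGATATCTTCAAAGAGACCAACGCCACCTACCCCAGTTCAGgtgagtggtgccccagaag
Trbv13-3 exon 2: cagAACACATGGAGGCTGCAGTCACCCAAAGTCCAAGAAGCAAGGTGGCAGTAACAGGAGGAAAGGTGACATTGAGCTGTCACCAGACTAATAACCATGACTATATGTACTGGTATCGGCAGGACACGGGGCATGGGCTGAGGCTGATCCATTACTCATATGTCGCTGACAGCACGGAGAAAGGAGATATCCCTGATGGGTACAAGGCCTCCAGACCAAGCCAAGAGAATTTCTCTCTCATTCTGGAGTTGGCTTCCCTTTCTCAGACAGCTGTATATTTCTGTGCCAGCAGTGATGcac
Trav14-1 promoter and exon 1: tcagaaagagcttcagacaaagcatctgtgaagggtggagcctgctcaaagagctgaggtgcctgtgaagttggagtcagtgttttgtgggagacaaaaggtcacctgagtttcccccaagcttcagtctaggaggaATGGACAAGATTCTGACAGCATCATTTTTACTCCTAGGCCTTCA

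A second set shows sequence from shared sites in the enhancer intervals and upstream of Trbd1. Downstream of Trac it covers chr14:54846984-54847283 and chr14:54853028-54853309. It covers chr6:41504391-41504690 between Trbc2 and Trbv31 and chr6:41482688-41482987 upstream of Trbd1. The distal site downstream of Trac is shown whole, as in the dKO list. The other sequences are windows of 300 bases that leave out part of the site. In dKO cells these sites span chr14:54847011-54847433, chr6:41504332-41504814 and chr6:41482620-41483150. The proximal site downstream of Trac also holds a TGTGGT match at 54847317 to 54847322, outside its window. Capitals mark matches, on either strand, to the Tcf/Lef core ATCAAAG, the Runx core TGTGGT, the core of Ets factors, which is GGAAGT, the Gata motif AGATAA or the CRE motif TGACGTCA. The Tcf/Lef core occurs in the distal of the sites downstream of Trac, and the CRE motif with 2 Ets matches occurs in the proximal site. Only exact matches are marked. The proximal sequence also holds ctttgaa, unmarked, which differs from the core on the minus strand, CTTTGAT, in its last base. An unmarked stretch therefore cannot be read as free of Tcf/Lef sites.
Trac downstream, proximal: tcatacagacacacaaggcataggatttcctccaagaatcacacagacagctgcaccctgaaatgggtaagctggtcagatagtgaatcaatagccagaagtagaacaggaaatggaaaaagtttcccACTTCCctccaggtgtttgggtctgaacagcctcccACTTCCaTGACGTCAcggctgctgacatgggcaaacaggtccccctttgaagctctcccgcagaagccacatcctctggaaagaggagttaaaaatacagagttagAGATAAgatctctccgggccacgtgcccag
Trac downstream, distal: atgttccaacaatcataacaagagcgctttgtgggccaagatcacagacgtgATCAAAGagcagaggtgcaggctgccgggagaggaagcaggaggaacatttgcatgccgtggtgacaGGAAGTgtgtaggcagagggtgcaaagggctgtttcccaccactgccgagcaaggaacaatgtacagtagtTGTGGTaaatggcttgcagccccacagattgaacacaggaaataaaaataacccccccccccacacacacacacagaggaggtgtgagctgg
Trbc2 downstream: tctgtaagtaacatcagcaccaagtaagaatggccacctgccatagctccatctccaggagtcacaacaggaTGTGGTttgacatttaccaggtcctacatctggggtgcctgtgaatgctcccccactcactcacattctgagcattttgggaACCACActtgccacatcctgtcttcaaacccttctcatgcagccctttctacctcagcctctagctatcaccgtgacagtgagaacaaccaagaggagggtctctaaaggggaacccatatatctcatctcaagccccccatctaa
Trbd1 upstream: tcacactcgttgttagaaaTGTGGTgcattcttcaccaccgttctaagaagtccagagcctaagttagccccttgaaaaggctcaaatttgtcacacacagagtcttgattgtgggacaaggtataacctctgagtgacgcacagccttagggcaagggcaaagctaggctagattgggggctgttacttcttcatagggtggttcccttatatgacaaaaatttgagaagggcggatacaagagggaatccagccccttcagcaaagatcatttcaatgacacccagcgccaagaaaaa

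Another set shows sites in the V and J parts of the loci. The sites at Traj37 (chr14:54801039-54801289) and Traj7 (chr14:54830958-54831183), named Gm16671 and Gm16919 in the annotation, were found in the dKO list and have the J segment in capitals. The Traj7 segment runs on to 54831203, past the end of the site, and is shown in part. The site upstream of Trav6n-6 (chr14:53752189-53752327, Gm10895 in the annotation) was shared and high in both lists, and capitals mark its match to the CTCF core motif. The site upstream of Trbv12-2 (chr6:41068313-41068547) holds the Tcf/Lef core on the minus strand and a Runx match.
Traj37: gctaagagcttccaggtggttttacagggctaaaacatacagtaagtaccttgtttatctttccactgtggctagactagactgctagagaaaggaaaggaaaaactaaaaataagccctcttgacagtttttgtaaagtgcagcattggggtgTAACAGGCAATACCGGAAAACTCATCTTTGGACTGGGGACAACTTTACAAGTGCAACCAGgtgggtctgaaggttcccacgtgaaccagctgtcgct
Traj7: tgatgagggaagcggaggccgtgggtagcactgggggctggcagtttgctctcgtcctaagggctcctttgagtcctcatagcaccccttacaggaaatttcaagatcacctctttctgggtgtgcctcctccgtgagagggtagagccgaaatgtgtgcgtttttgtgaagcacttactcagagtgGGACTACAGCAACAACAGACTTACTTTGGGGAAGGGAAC
Trav6n-6 upstream: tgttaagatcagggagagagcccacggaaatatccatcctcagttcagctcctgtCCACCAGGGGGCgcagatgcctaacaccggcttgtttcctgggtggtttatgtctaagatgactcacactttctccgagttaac
Trbv12-2 upstream: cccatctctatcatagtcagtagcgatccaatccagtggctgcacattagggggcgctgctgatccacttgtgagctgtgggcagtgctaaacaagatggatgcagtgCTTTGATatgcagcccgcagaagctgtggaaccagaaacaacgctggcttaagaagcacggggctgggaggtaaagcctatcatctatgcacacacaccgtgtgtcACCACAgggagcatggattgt

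At the Tra locus, dKO cells had more ChrAcc sites than WT cells, and most of them had no WT counterpart. There were 19 WT and 31 dKO sites, or 1.04 and 1.69 per 100 kb (1.53 in dKO cells without the exon-matching sites), while chromosome 14 as a whole had 0.791 in WT and 0.705 in dKO cells. Of the 31 dKO sites, 20 (64.5%) did not overlap a WT site, beside 14.4% of all dKO sites. Of the 19 WT sites, 8 (42.1%) did not overlap a dKO site, beside 27.6% of all WT sites. Without the exon-matching sites, 17 of 28 dKO sites (60.7%) had no WT site, and at the Trb locus 3 of 13 (23.1%). At the Trb locus the lists were alike in number, with 14 sites each, or 1.98 per 100 kb (1.84 in dKO cells without the exon-matching sites). In each list 4 sites (28.6%) had no counterpart. Over both loci, 53.3% of dKO sites (95% Wilson interval 39.1 to 67.1), or 48.8% (34.3 to 63.5) without the exon-matching sites, and 36.4% of WT sites (22.2 to 53.4) had none, and these intervals cover counting error over sites only.

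The other antigen receptor loci, built in the same way, were set beside them. The Trg locus had 4 WT and 9 dKO sites, and 0 of the 4 and 5 of the 9 had no counterpart. The Igh locus had 25 WT and 34 dKO sites, of which 6 WT and 15 dKO sites had none. The Igk locus had 4 WT and 5 dKO sites, and the Igl locus had none in either list. Sites of low rank were less often shared in general: 46.1% of dKO sites in the lowest 10 percentiles had no WT site, beside 1.11% in the highest 10, and 14.6% at percentiles 30 to 40, where the dKO median of the Tra locus (30.6) lies. Of WT sites, 1.72% in the highest 10 percentiles had no dKO site, and 34.2% at percentiles 30 to 40, where the WT median of the Tra locus (30.7) lies, beside the 42.1% of the Tra locus. The rank of each site is therefore given with its sharing.

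**Figure D1:**
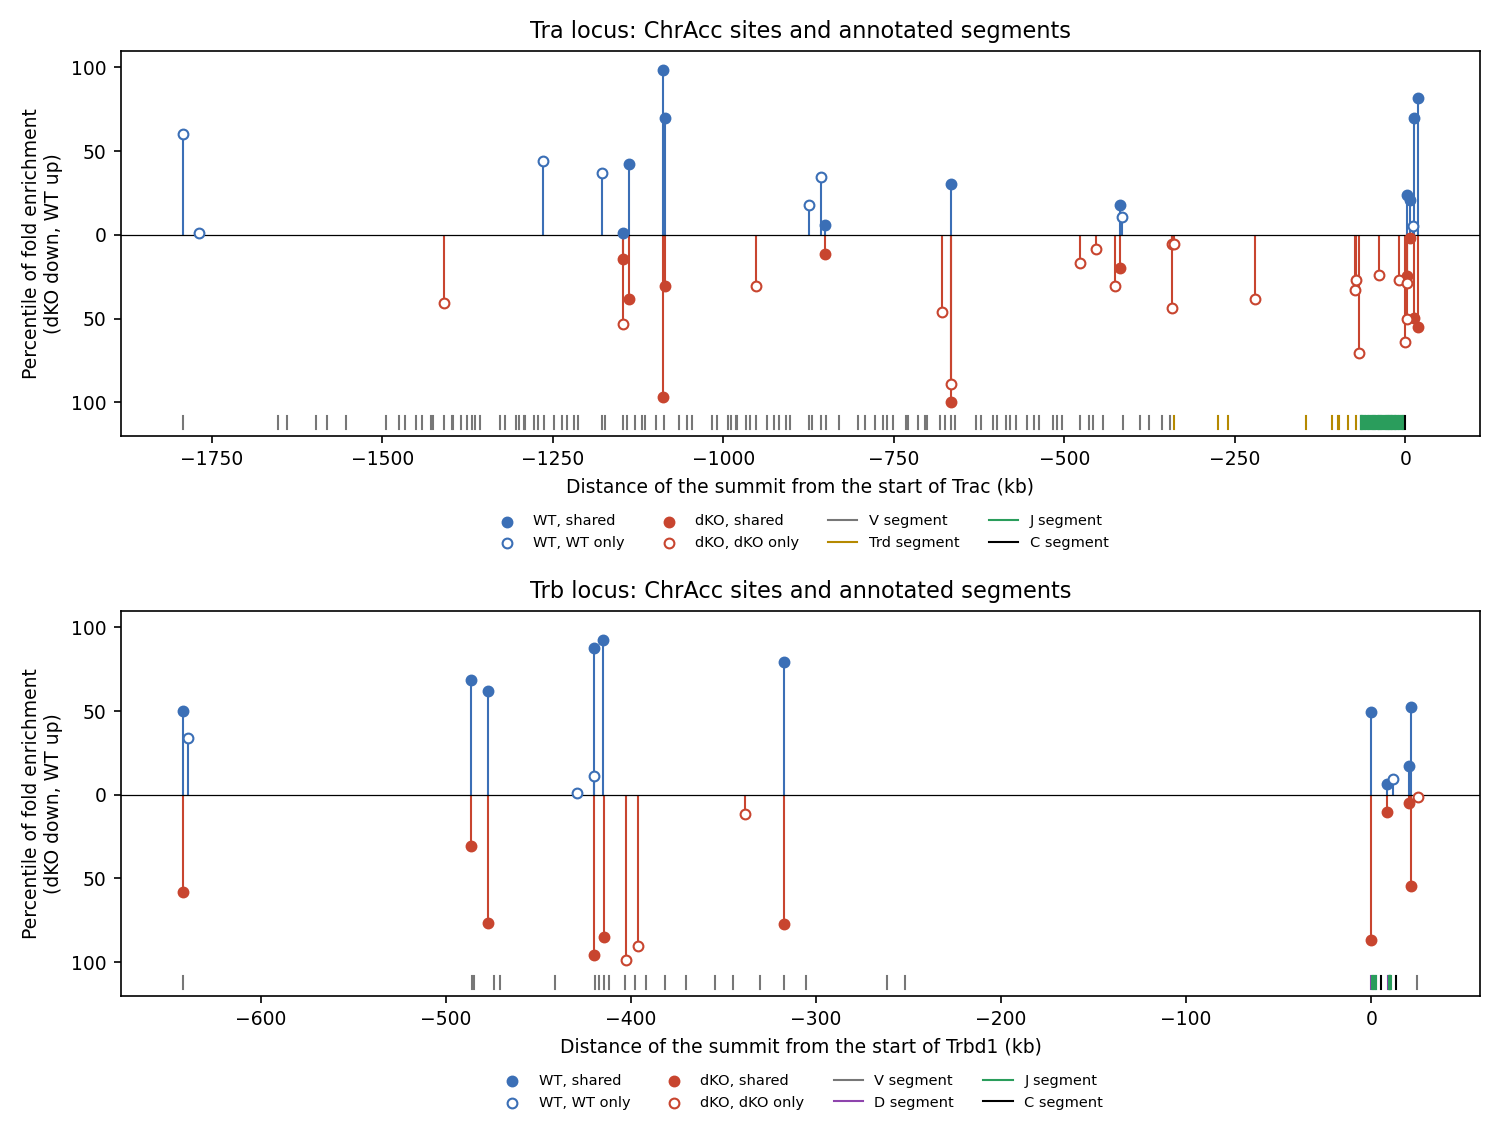
ChrAcc sites of the Tra locus (upper panel) and the Trb locus (lower panel), by distance of the summit from the start of Trac or Trbd1 in kb and by percentile of fold enrichment, WT upwards and dKO downwards. Filled points are shared and open points are found in 1 list, ticks are annotated segments, and the 7 dKO sites among the Trd segments have no WT site opposite.

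Along the Tra locus, the V part had similar numbers of sites in the lists, and the excess of dKO sites lay from the Trd segments to Trac. Among V segments there were 14 WT and 15 dKO sites, or 14 dKO sites without exon 2 of Trav14-1. From the last Trav segment to Traj61, a stretch of 278.0 kb that holds the Trd segments, there were 7 dKO sites and 0 WT sites. The Traj part had 2 dKO sites and 0 WT sites, and Trac itself had 3 dKO sites, 2 of which matched exons, and 1 WT site. Downstream of Trac, each list had 4 sites. The highest of the dKO sites among the Trd segments, at chr14:54772651-54772750, lay 1978 bp upstream of Traj61, at percentile 70.6 with a pileup of 45 fragments. The other 6 ranged from percentile 5.39 to 43.5, and their nearest segments were Trav21-dv12 (43.5 and 5.39), Trdv2-2 (38.2), Trdv5 (33.0 and 27.1) and Trdv1 (5.39).

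At J segments, 2 sites were found in dKO cells and none in WT cells, where a peak 66 bp past Traj1 with a fold enrichment of 3.22 failed the fold criterion. The summit at Traj37 (chr14:54801039-54801289) lay 13 bp upstream of the segment, at percentile 24.0, and that at Traj7 (chr14:54830958-54831183) lay 38 bp upstream, at percentile 26.9. Neither had a WT site. Their pileups of 29 and 28 fragments were at percentiles 23.0 and 20.9 of the pileups in the list.

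At Trac, which encodes the constant region of the alpha chain, a shared site lay in an intron, and the further dKO sites lay over exons. The intronic site had percentile 24.0 in WT and 24.3 in dKO cells, with pileups of 79 and 94 fragments. The dKO sites over exons 1 and 3 had pileups of 133 and 142 fragments, at percentiles 63.7 and 50.1. A further dKO site at chr14:54843373-54843655, past the annotated end of Trac, had a pileup of 112 and percentile 28.7, and no WT site. Only annotated exons were matched, so this site stays in all values given without the exon-matching sites. Exon 2, with 45 bp, had no site in either list.

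**Figure D2:**
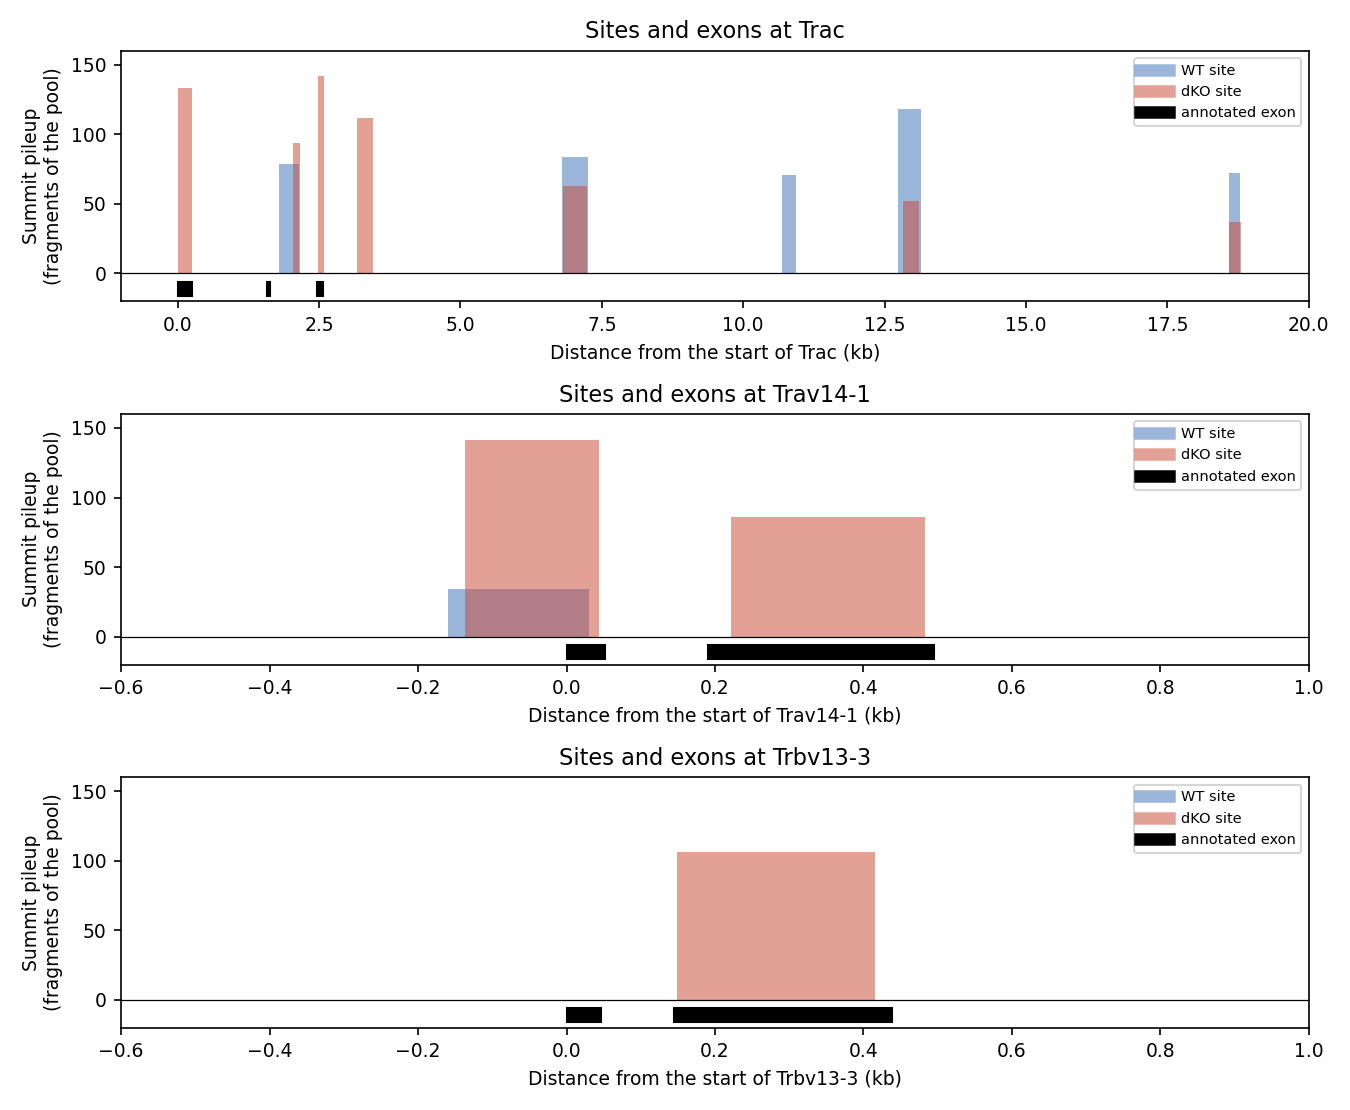
ChrAcc sites at Trac, Trav14-1 and Trbv13-3 by distance from the start of the segment in kb, with bar width giving the site's extent, bar height the summit pileup in fragments of the pool (not scaled to depth) and black boxes annotated exons. The dKO bars over exons 1 and 3 of Trac reach 133 and 142 fragments, and no WT site lies there.

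In the interval that runs from Trac into Dad1, which holds the enhancer of the alpha chain gene, the 3 shared sites had lower percentiles of fold enrichment in dKO cells, while the centred pileup ratio had an interval below 1 at 1 of them. Over all shared pairs, 14.5% were at least 20 points lower in dKO cells and 6.93% at least 20 points higher. Of the 3 sites, only that in Dad1 fell by as much, and the share of all pairs with any fall was not counted. The site 7.2 kb from the start of Trac in WT cells had percentile 20.9 in WT and 1.98 in dKO cells, with pileups of 84 and 63 fragments and a centred pileup ratio of 1.11 (95% counting interval 0.789 to 1.56). The site at 13.0 kb had percentile 69.7 and 49.8, with pileups of 118 and 52 fragments. It was the only 1 of the 21 shared sites whose pileup ratio dKO over WT, centred on the median of all shared sites, had a 95% counting interval below 1, at 0.653 (0.462 to 0.913). An interval below 1 was found for 5.98% of all shared pairs. The interval was above 1 for 7 of the 21, beside 7.79% of all shared pairs, at Trav14-1, the Trac intron, Trbv1, Trbv4, Trbv12-1, Trbd1 and Trbd2. The median log2 ratio of all shared pairs was -0.57, and the log2 ratio of fragments kept was -0.43. With pileups scaled to fragments kept, a choice made after the data were seen, 3 of the 7 had an interval above 1 (Trav14-1, the Trac intron and Trbd1), beside 4.4% of all shared pairs, and the same 1 site had an interval below 1, beside 11.9%. By fold enrichment the centred log2 difference at the Trac intron was 0.11, beside 0.82 by pileup. A WT site at 10.8 kb (percentile 5.1) had no dKO ChrAcc site, and the dKO peak there failed the fold criterion. The site in Dad1, a gene for a subunit of the oligosaccharyltransferase, had percentile 81.9 in WT and 55.3 in dKO cells, a difference of 26.6 points, and its centred pileup ratio of 0.762 had an interval that includes 1 (0.498 to 1.15).

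Fold enrichment divides by the local background, which was raised near Trac in both lists. This background comes from the pool itself, over a range of 10000 bp, so signal of nearby sites can enter it. Leaving out the exon-matching sites does not change the fold enrichment of other sites. The local background behind each fold enrichment, taken over the lowest value of its list, was 2.84 at the Trac intron in WT and 4.54 in dKO cells, and reached 5.14 in dKO cells past the end of Trac. Among Trav segments its median was 1.0 in both lists. By pileup, the site 7.2 kb from Trac was at percentile 73.4 in WT and 75.1 in dKO cells. The number of copies of each segment in the pool and its accessibility cannot be told apart in these values.

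**Figure D3:**
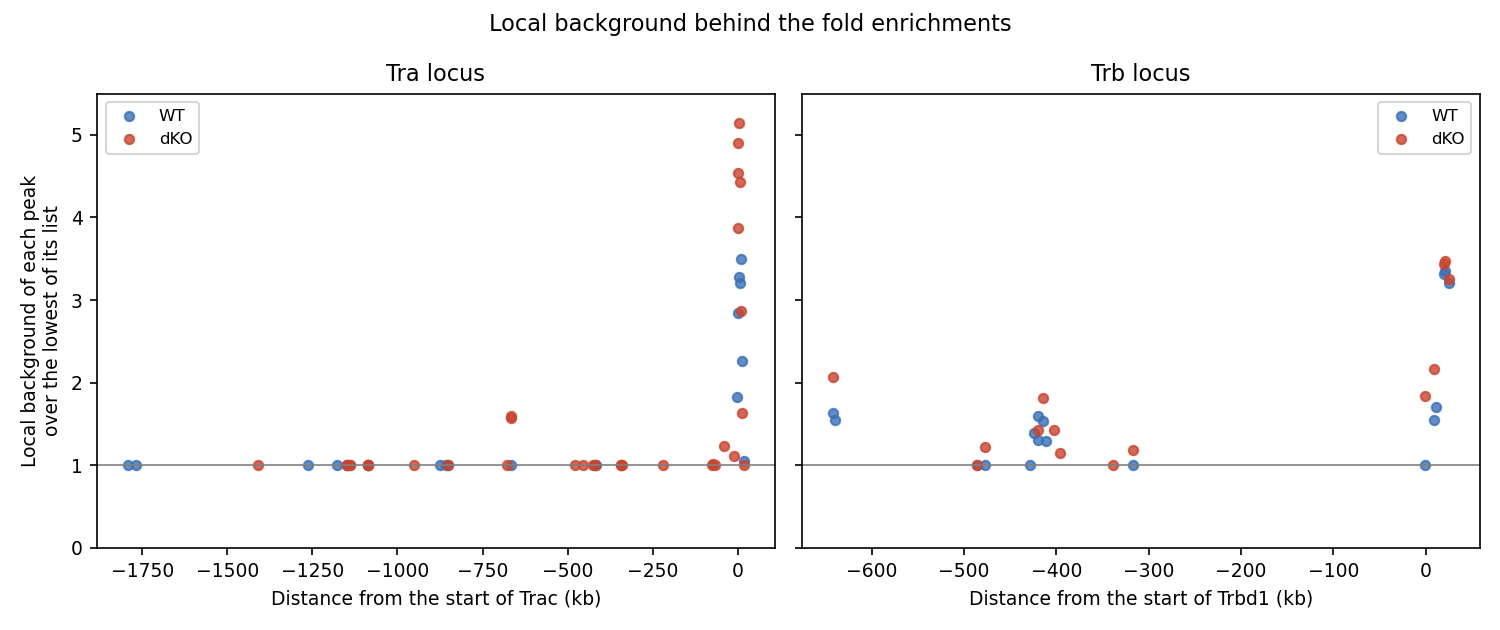
Local background of each peak, divided by the lowest local background of its list, by distance from the start of Trac or Trbd1 in kb. Values are at 1 for most Trav segments and rise to 5.14 near Trac and 3.47 downstream of Trbc2 in dKO cells.

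V segments were the largest class, and many of the sites among them lay just upstream of a segment start. Among the Tra V sites, 8 of 14 in WT and 7 of 15 in dKO cells (7 of 14 without exon 2 of Trav14-1) had the summit within 1 kb upstream, at a median of 194 bp and 161 bp. Among the Tra V sites found in both lists, that of Trav6n-6, 272 bp upstream in WT cells, was the highest in WT cells, at percentile 98.5 in WT and 97.1 in dKO cells. A site 2.09 kb past the start of the same segment had percentile 70.1 for WT and 30.6 for dKO cells. The centred pileup ratio of this site, 0.69, had an interval that includes 1 (0.42 to 1.11). Apart from Trav14-1, the other shared V sites stood at percentile 1.19 (WT) and 14.1 (dKO) upstream of Trav13d-4, 5.91 and 11.3 upstream of Trav14n-3, 17.8 and 19.7 upstream of Trav17, and 42.3 and 38.2 past Tcra-V2.6. Found in WT and not in dKO cells were a site 78 bp upstream of Trav1 (percentile 60.4), the first Trav segment of the locus, and sites upstream of Trav15d-2-dv6d-2 (44.2), Trav8d-2 (36.8) and Trav8n-2 (17.8). A further 3 WT sites without a dKO site lay downstream of Trav13n-4 (34.8), upstream of Trav17 (10.7) and in Olfr1509 (1.19), an olfactory receptor gene inside the extended locus. Found in dKO and not in WT cells were sites with the nearest segment Trav13d-4 (53.0), Trav12-1 (45.9), Tcra-V22.1 (40.9), Trav15n-2 (30.6), Trav17 (30.6), Trav16 (16.8) and Trav14-3 (8.18), and over exon 2 of Trav14-1 (89.0).

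The site at the start of Trav14-1 was shared, and its difference was the largest at the loci. Its percentile was 30.7 for WT and 99.7 for dKO cells, with pileups of 34 and 141 fragments. The centred pileup ratio was 6.15 (95% counting interval 4.2 to 9.23), and 0.0812% of all shared pairs had a ratio as high or higher. By fold enrichment the centred log2 difference was 1.93, beside 2.62 by pileup, and the local background was 1.0 times the lowest of the list in WT and 1.57 times in dKO cells. Exon 2 of the same segment carried a dKO site at percentile 89.0 with a pileup of 86 fragments. The shared site also runs into exon 1, and the part of a transgene in its value was not tested.

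At the Trb locus, 10 of 14 sites in each list were shared. The V segment sites upstream of Trbv12-1 and Trbv12-2 were among the highest, at percentiles 87.5 and 92.2 in WT and 96.0 and 85.1 in dKO cells. The site upstream of Trbv1, the first Trbv segment, had percentile 50.3 in WT and 58.0 in dKO cells, and that at Trbv23 79.2 and 77.2. The site 3695 bp upstream of Trbv4 in WT cells had pileups of 52 in WT and 57 in dKO cells. The site 795 bp upstream of Trbv2 stood at percentile 68.8 and 30.6, and its centred pileup ratio of 0.702 had an interval that includes 1 (0.427 to 1.13). Found in dKO and not in WT cells were exon 2 of Trbv13-3 (percentile 98.5), a site 2.01 kb past the start of Trbv14 with a CTCF match (90.4), a site past Trbv20 (11.3) and a site 89 bp upstream of Trbv31 (1.36), the last Trbv segment, where the WT peak failed the fold criterion. Found in WT and not in dKO cells were sites past Trbv1 (34.1), past Trbj2-7 (9.28) and upstream of Trbv12-1 (11.5 and 1.19). No site was found in either list over the 243.0 kb before Trbd1 that hold the trypsinogen genes from Try4 to Prss2.

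The D segments, which are joined to J segments first in beta chain assembly, each had a shared site upstream. At Trbd1 it stood at percentile 49.2 for WT and 86.7 for dKO cells, with pileups of 44 and 94 fragments and a centred pileup ratio of 3.17 (95% counting interval 2.19 to 4.64), which 0.368% of all shared pairs reached. On the ratio of fold enrichments the centred log2 difference was 0.79, under a factor of 2, and the local background was 1.0 times the lowest of the list in WT and 1.84 times in dKO cells. At Trbd2 it stood at 6.49 and 10.1. No site lay within 1 kb of Trbc1 or Trbc2, the constant region segments, whose first exons are near-identical to each other: 46.8% of the 100-base windows over exon 1 occur once in the genome. Between Trbc2 and Trbv31, the interval of the beta chain enhancer, a shared site had percentile 52.4 in WT and 54.4 in dKO cells, with pileups of 136 and 108 fragments, and a neighbouring site had 17.0 and 4.76.

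Over all 21 shared pairs of the loci, the centred log2 pileup ratio dKO over WT had a median of 0.28 and ranged from -0.61 to 2.62. A rise past a factor of 2 was seen for 2 of 21, those at Trav14-1 and Trbd1, beside 1.66% of all 20937 shared pairs, and a fall past it for 0, beside 1.1%. The percentile was at least 20 points higher in dKO cells for 2 pairs, beside 6.93% of all pairs, and at least 20 points lower for 3, beside 14.5%. The 3 were the sites 2.09 kb past the start of Trav6n-6, 795 bp upstream of Trbv2 and in Dad1. The median percentile of all sites at the loci was 34.8 in WT and 38.2 in dKO cells, or 30.6 in dKO cells without the exon-matching sites. Which list had the higher median depended on the measure. Ranks by -log10 p gave 39.1 for WT and 34.9 for dKO, and ranks by pileup 42.1 and 39.5. With q under 1e-10 it was 38.0 and 36.5, and with the 20000 peaks of lowest p 38.0 and 34.1, so no difference in rank between the lists is read from it.

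**Figure D4:**
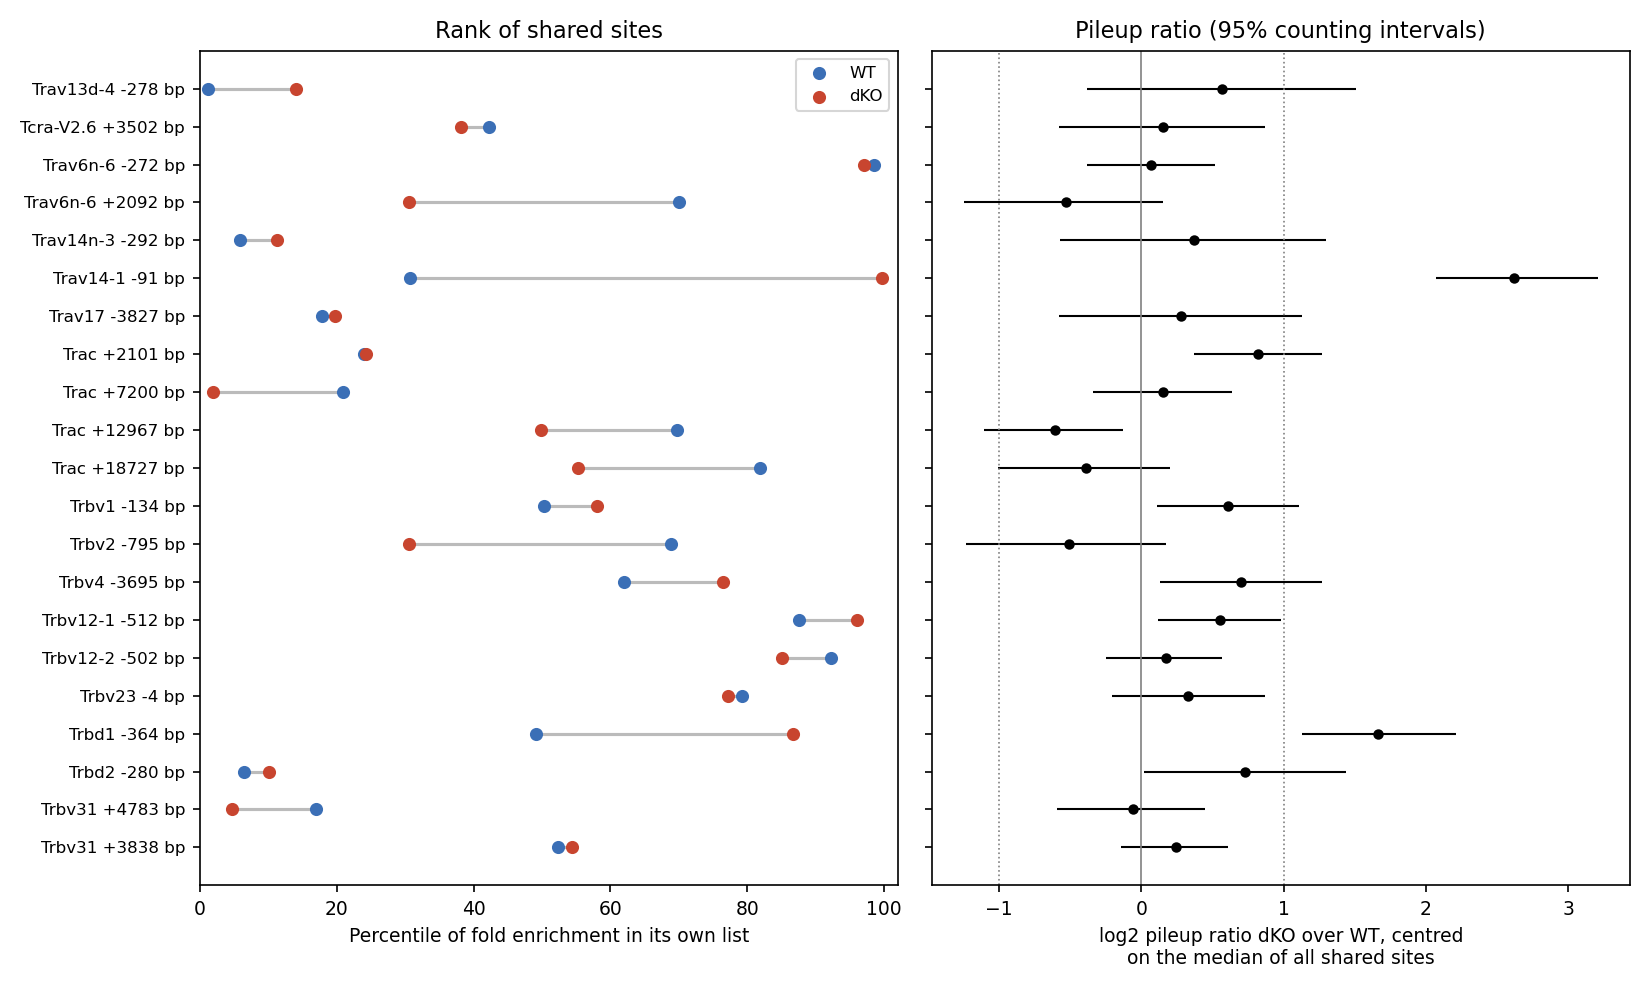
The 21 shared sites, named by the nearest segment and the offset of the WT summit from its start in bp, with the percentile in each list (left) and the centred log2 pileup ratio dKO over WT with 95% counting intervals (right; dotted lines mark a factor of 2). Trav14-1 and Trbd1 lie past the factor of 2, at 2.62 and 1.66.

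By segment class, 15 of the 90 segments (16.7%) had a site within 1 kb in each list. For comparison, 45.3% of protein-coding genes in WT and 42.1% in dKO cells had a site within 1 kb of the TSS, a different window. Of 45 Trav segments, 2 had one in WT and 1 in dKO cells, with no segment in common. Of 22 Trbv segments, 5 had one in WT and 7 in dKO cells, and 5 in both. The exon site of Trbv13-3 is among the 7, and without exon-matching sites 14 of the 90 segments had a dKO site, beside 15 with them. Both Trbd segments and Trac had one in each list. Of 13 Trbj segments, 5 had one in WT and 4 in dKO cells, but 4 of these in each list (Trbj1-1, Trbj1-2, Trbj2-1 and Trbj2-2) are reached by the sites upstream of Trbd1 and Trbd2. None was found at the 5 Traj and 2 Trbc segments. The annotation holds a further 123 segments in the loci under other names, of which 118 could be named through RefSeq synonyms. With all 123, 9 of 103 Trav segments had a site in WT and 7 in dKO cells, and 0 and 4 of 59 Traj segments. The 7 include Tcra-V22.1, which RefSeq synonyms did not name. The 4 Traj segments share 2 sites, those at Traj37 and Traj7.

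Only uniquely mapped reads entered the lists, and many Trav segments lie in near-identical copies. Over the Tra locus 65.8% of 100-base windows occur once in the genome, beside 89.7% of the Trb locus. Of 103 Trav segments, 43 had fewer than 50% unique windows within 1 kb, and 2 of these 43 had a site, beside 10 of the other 60. Among the 45 Trav segments of the rule the order was the opposite, with 2 of 17 and 1 of 28. The 2 were Trav15d-2-dv6d-2, with a WT site 163 bp upstream, and Trav15n-2, with a dKO site 161 bp upstream. Within 1 kb they had 10.4% and 6.19% unique windows, and over the sites with short flanks 91.3% and 95.2%. The part of mapping in the number of Trav sites, or in which list a site was found, was not tested. At such segments a missing site cannot be read as closed chromatin.

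**Figure D5:**
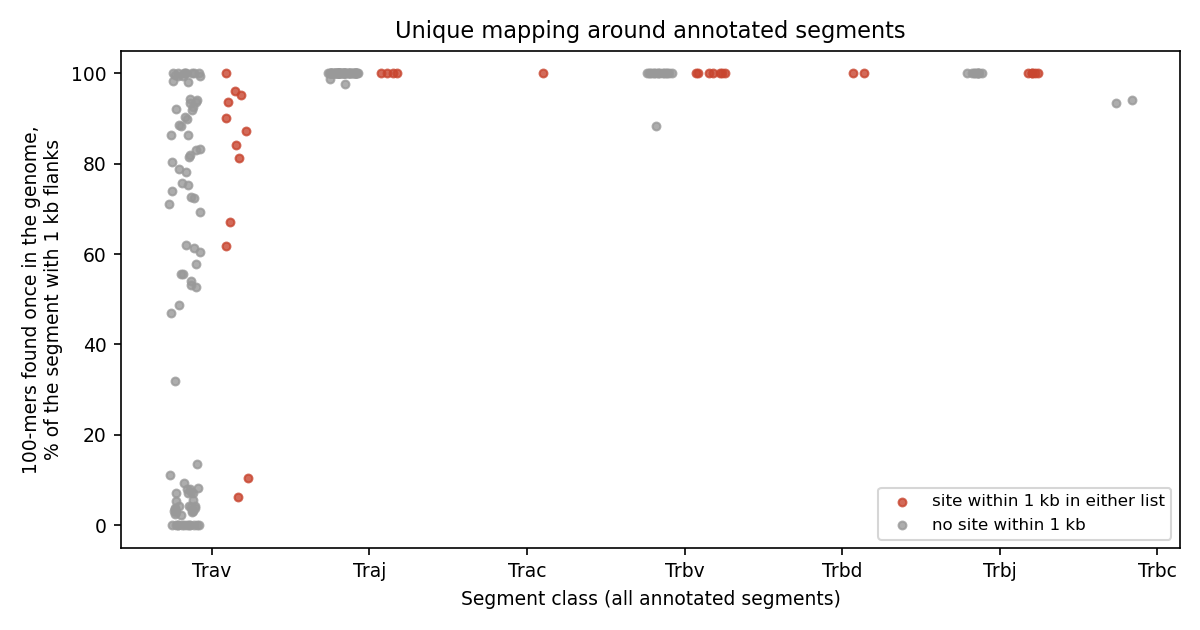
Share of 100-base windows that occur once in the genome, in percent, for each annotated segment with 1 kb on both sides, by class, with segments that have a site within 1 kb in either list in red. Trav segments spread over the whole range, and 10 of the 12 with a site are above 50%.

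Motifs within 100 bp of the summits were counted beside the share of all sites of the list. TGTGGT, the core bound by Runx factors, occurred at 14 of 33 WT sites (42.4%) and 22 of 45 dKO sites (48.9%), beside 21.8% and 23.2% of all sites. ATCAAAG, the Tcf/Lef core, occurred at 2 WT sites and 1 dKO site, or 6.06% and 2.22%, beside 3.81% and 2.42%. They were the distal site downstream of Trac, which holds it in the WT window, and the site upstream of Trbv12-2. The Ets core GGAAGT was found at 27.3% and 28.9% of sites, beside 26.0% and 27.1%, and the Gata motif AGATAA at 9.09% and 13.3%, beside 6.03% and 6.62%. The CTCF core was found at 15.2% and 11.1%, beside 11.7% and 11.3%, and the recombination signal heptamer CACAGTG at 6.06% and 8.89%, beside 5.63% and 5.8%. The 2 CRE forms, TGACGTCA and TGATGTCA, were found at 0 and 2 WT sites (0% and 6.06%, beside 1.97% and 1.49% of all sites) and at 1 and 1 dKO sites (2.22% each, beside 2.15% and 1.56%). The TGACGTCA match lies inside the shared site 7.2 kb from Trac in both lists, and falls outside the WT window because the summits there are 263 bp apart. Without the exon-matching sites, the shares of the 41 dKO sites were 48.8% for TGTGGT, 29.3% for GGAAGT, 14.6% for AGATAA, 12.2% for the CTCF core, 9.76% for CACAGTG and 2.44% each for ATCAAAG, TGACGTCA and TGATGTCA, which put the CTCF core and ATCAAAG above the share of all dKO sites and not below it. Within 50 bp of the summit, TGTGGT was at 27.3% of WT and 35.6% of dKO sites, beside 14.9% and 16.1% of all sites. In that window the order relative to all sites turned for GGAAGT, at 6.06% of WT and 13.3% of dKO sites beside 16.7% and 17.8%. It also turned for ATCAAAG in WT cells (0% beside 1.91%), CACAGTG in WT cells (3.03% beside 3.24%), AGATAA in dKO cells (0% beside 2.71%) and TGATGTCA in dKO cells (0% beside 0.899%). Only these exact words were counted, so variants of a core are missed. A match is a description of the sequence and not of binding.

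Genes that act in the same process were looked up by ChrAcc sites at the TSS. Of 12 genes of V(D)J recombination and end joining, 8 had a site in both lists, beside 45.3% of protein-coding genes in WT and 42.1% in dKO cells. Rag1 and Rag2, which encode the recombinase, and Dntt, which adds bases at the joints, had none in either list, and neither did Nhej1. The end joining genes Xrcc5, Xrcc6, Prkdc, Dclre1c, Lig4 and Xrcc4 all had one, as did Hmgb1 and the DNA damage kinase gene Atm. Of the 4 genes for CD3 and zeta chains that carry the receptor to the surface, all had a site in WT cells and 3 in dKO cells, beside the same 45.3% and 42.1%, with Cd3d (percentile 6.55 in WT) without a dKO site. Of the other genes that overlap the loci, Dad1 had a site at the TSS in both lists, Olfr1509 in WT cells and B230359F08Rik in dKO cells, and none of the Prss and Try genes had one.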

How the data were processed

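The authors aligned reads to mm9 with Bowtie2 2.2.5, kept uniquely mapped reads (MAPQ > 10), pooled the replicates of each genotype and called peaks with MACS2 2.1.1 without a control library. Per the file headers, duplicates had been removed, each pool was entered under a pair of file names, and MACS2 kept 1 fragment of each set of duplicates, which left 83923734 of 167847468 fragments for WT and 62242963 of 124485926 for dKO. The deposited pileup is a signal, the number of fragments of the pool over the summit. The authors' fold enrichment, a ratio, divides the pileup by the background around the summit in the same pool. The deposited -log10 p and -log10 q are the authors' MACS2 values. The local background was recovered here from pileup and fold enrichment, given that MACS2 adds 1 to the pileup and to the background before it divides them.

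Segments came from the gencode annotation of mm9, and older names were matched to RefSeq through synonyms alone. Sites of the lists that overlapped by at least 1 bp were shared. Ratios of pileups were centred on the median of all shared pairs, and their intervals treat the summit pileups as counts, so they cover counting error only. Unique windows were 100-base words found once in the genome on either strand. The overlap step was tested on simulated data. Sites were chosen for naming per locus and list. They were the 5 with the highest fold enrichment, sites in 1 list (up to 10) and the 5 largest percentile differences in each direction. Those nearest to Trac, Trbc, Trbd and the outer segments were added, with those of the intervals downstream of Trac and Trbc2. The limit of 10 was not kept, and all sites in 1 list and all shared sites are named. The members and lists were chosen with earlier results of these data known. The alternatives were stricter and looser site criteria, other extensions, overlaps, ranks, ratios and windows. Python 3.11.15, numpy 2.4.6, pandas 2.3.3, scipy 1.17.1, pysam 0.24.0 and matplotlib 3.10.9 were used.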

Additional observations from a re-analysis of the deposited data

How the results depend on the processing

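No paired analysis was possible because the replicates of each genotype were pooled before the lists were made, and no replicate could be left out for the same reason. Of 139 values under alternatives, 108 stayed within 1.5 times the main count or within the interval of the main median, 31 moved and 0 changed sign, which applies to the median pileup ratio alone. The order of the WT and dKO median percentiles turned with ranks by -log10 p or pileup, q under 1e-10, the 20000 peaks of lowest p and without exon-matching sites. With a fold enrichment of at least 8, sites numbered 5 WT and 10 dKO at Tra and 8 and 9 at Trb. Those without a counterpart were then 2 and 7 at Tra and 1 and 2 at Trb, where a counterpart under the limit does not count. The share of all sites without a counterpart was not counted at this limit. The dKO sites without a counterpart included exon 2 of Trav14-1 (fold enrichment 14.2) and exons 1 and 3 of Trac (9.95 and 8.51). At Trb they included exon 2 of Trbv13-3 (19.0). Segments with a site were then 9 in each list, and the median dKO percentile was 56.9. Keeping, per list, the 20000 peaks of lowest p, Tra had 10 WT and 24 dKO sites. Those without a counterpart numbered 3 WT and 17 dKO sites at Tra, and 1 and 4 at Trb. The share of all sites was not counted there either, so none of these counts is read against the main shares. Segments with a site, 15 in each list with the 1 kb window, were 9 in WT cells within 500 bp, 24 WT and 26 dKO within 2 kb, and 4 in each list by overlap with the segment itself. With motifs counted within 50 bp of the summit, WT sites with ATCAAAG were 0, with TGTGGT 9, with GGAAGT 2, and with TGATGTCA, AGATAA and CACAGTG 1 each, while dKO sites with GGAAGT were 6, with CACAGTG 2, and with ATCAAAG, TGATGTCA and AGATAA 0. With pileups scaled to fragments kept, an alternative added after the data were seen, 3 shared sites had a counting interval above 1, where centring gave 7. Stricter criteria and smaller windows keep fewer sites by construction. The alternative without exon-matching sites, added after the data were seen, gave values within those limits for every result counted here. It was run with the main criteria only. The lowest site pileups at the V segments of Tra were 21 fragments in WT and 19 in dKO cells. Their fold enrichments were 4.09 and 4.73, beside the limit of 4. The part of depth in the lower ranks was not tested.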

Other observations

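At the edges of the loci, the last peak before the extended Tra locus lay 69.1 kb away in both lists, and the first peak after it was nearer. After the Trb locus the next peak lay 26.1 kb away in both lists, and before it 52.6 kb away in WT and 400 kb away in dKO cells. The last WT peak before the Trb locus had a fold enrichment of 3.53 and was no ChrAcc site.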
